A study of Mus musculus with 2 samples.

Results

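The genes described here make, process or sense 3 vasoactive signals: angiotensin, endothelin and nitric oxide. They are 9 genes fixed by symbol, out of 55536 annotated genes: Agt, Ace, Agtr1a and Agtr2 for angiotensin, Edn1, Ece1, Ednra and Ednrb for endothelin, and Nos3 for nitric oxide. All 9 were found in every table. The hearts came from 2 female B6CASTF1/J mice aged 25 days, an F1 hybrid obtained from The Jackson Laboratory, with no treatment, mutation or control group named in the labels. Total RNA (300 ng per library) was sequenced with ERCC spike-in transcripts, in libraries described as stranded and ribosomal RNA reduced. The labels number them as biological replicates 1 and 2. They carry 1 donor label but separate animal numbers, and were treated as 2 animals. No condition was varied, so the values are levels in the juvenile heart and the spread between 2 libraries. Whole heart holds many cell types, and fewer cells of a type cannot be told apart from less RNA per cell.

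Angiotensin arises in steps. Agt encodes angiotensinogen, the protein that renin cuts to release angiotensin I, and Ace encodes the peptidase that trims this to angiotensin II. Agtr1a encodes the type 1 receptor, through which angiotensin II constricts vessels and acts on heart muscle and fibroblasts, and Agtr2 the type 2 receptor, known for opposing actions and for its presence in fetal tissue. Endothelin-1, the product of Edn1, is cut from a larger protein by the enzyme that Ece1 encodes; it constricts vessels through the receptor of Ednra, found on smooth muscle and heart muscle cells, while the receptor of Ednrb on endothelium also releases nitric oxide and clears the peptide. Nos3 encodes endothelial nitric oxide synthase, whose gas product relaxes smooth muscle through guanylate cyclase.

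The coding bases of both peptides are shown because these peptides are the signals that the other members make or sense. The angiotensin I stretch is codons 30 to 39 of Agt-201 (mm10, chr8:124564450-124564479, minus strand, within 1 coding exon), read from the GENCODE M21 transcript; capitals mark the codons of angiotensin II, and the lower-case codons are those Ace removes. The endothelin-1 stretch is codons 53 to 73 of Edn1-201 (chr13:42303649-42303711, plus strand, 1 coding exon), in capitals throughout.
angiotensin I: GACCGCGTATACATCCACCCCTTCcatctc
endothelin-1: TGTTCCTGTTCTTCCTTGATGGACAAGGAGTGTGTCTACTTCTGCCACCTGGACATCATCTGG
Each of these genes has a single annotated transcript, so no annotated form lacks the stretch.

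Both libraries were of like depth, at 43190646 and 42954475 estimated counts in replicates 1 and 2. The tissue label held: all 8 cardiomyocyte markers were detected, Myh6 at 9386 and 9899 TPM and Myl2 at 7734 and 8081 TPM in replicates 1 and 2. TPM is transcript abundance per length, scaled to a fixed total in each library, and detected means at least 1 TPM in both. Markers of vessel cells were present as well, with all 11 endothelial, 6 smooth muscle and 7 pericyte genes detected. Replicate 2 also carried liver transcripts, with Alb at 13.4 TPM and Apob at 0.83 TPM against 0.03 and 0 TPM (2 counts each) in replicate 1. Of 7 kidney genes none was detected, and of 9 lung genes only Hopx, which heart muscle also expresses.

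The processing enzymes and the receptors other than Agtr2 stood above both precursors. By the mean of both libraries the order was Ece1, Agtr1a, Ednra, Nos3, Ace, Ednrb, Agt, Edn1 and Agtr2, from 34.8 down to 0.015 TPM. Of the 9 genes 8 were detected, where 49.9% of the 22028 protein-coding genes were. Neighbours in that order were taken as apart only where the credibility intervals deposited with the TPM values were separate in both libraries and the difference was at least 2 SD over the libraries. That held for 4 of 8 neighbouring pairs: Ece1 above Agtr1a, Ednra above Nos3, Ednrb above Agt, and Edn1 above Agtr2. It did not hold for Agtr1a and Ednra, which changed places between the libraries, nor for Nos3 and Ace, Ace and Ednrb, or Agt and Edn1. By these neighbours the levels fell into 5 steps, with Ece1 alone at the top, both constrictor receptors next, then Nos3 with Ace and Ednrb, then both precursors, and Agtr2 at the bottom. A step joins neighbours only: Nos3 and Ednrb, joined through Ace, had separate intervals in both libraries, with Nos3 the higher.

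**Figure D1:**
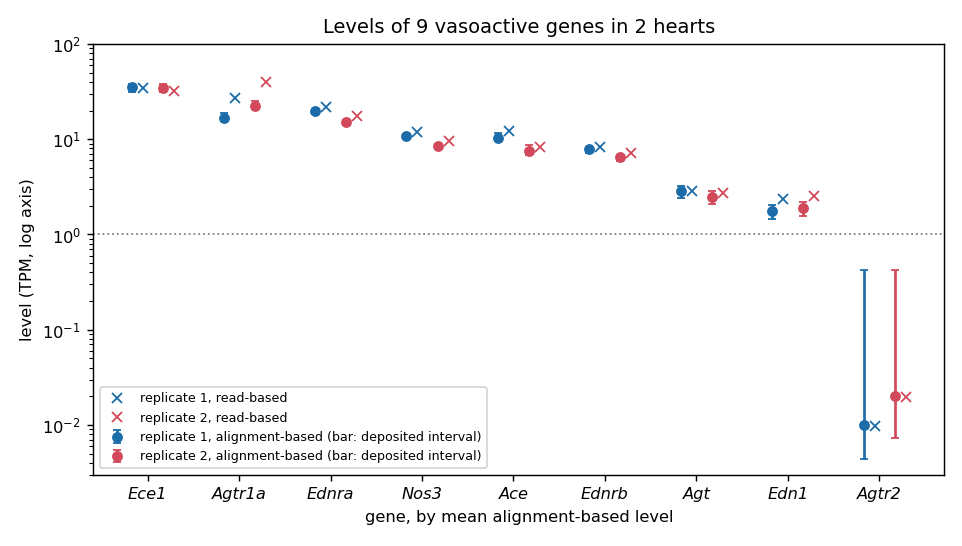
Level in TPM (log axis) of each gene in replicates 1 and 2; circles are alignment-based values with the deposited interval as bars, crosses read-based values, and the dotted line marks 1 TPM. Ece1 leads at 35.07 and 34.59 TPM, Agtr2 lies at 0.01 and 0.02 TPM, and Agtr1a has the widest gap between circles and crosses.

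The precursor Agt stood at 2.86 TPM in replicate 1 (deposited interval 2.40 to 3.23) and 2.49 TPM in replicate 2 (2.08 to 2.85), from 173 and 156 counts (identifier ENSMUSG00000031980.9, chr8:124556534-124569706). The intervals overlapped, and its rank was 9294 of 22028 protein-coding genes. Angiotensinogen in blood comes mainly from liver, and the liver transcripts of replicate 2 were therefore set beside it. All 19 tested genes of the 20-gene liver list were higher in that library, 16 of them called under the rule given below. The list summed to 23.9 TPM in replicate 1 and 62.0 TPM in replicate 2. Trf had the highest mean level of the list, at 15.3 and 15.6 TPM in replicates 1 and 2, and was not called. In replicate 1, 8 liver genes were listed at 0 TPM, among them Apob, Fga and Fgb. Agt was not higher in replicate 2, and its level was 2.86 TPM in the library where Alb stood at 0.03 TPM. The ratio of scaled counts, replicate 2 over replicate 1, was 0.931 (95% exact interval 0.745 to 1.16). Whether liver transcripts made up part of the Agt counts in replicate 2 was not tested.

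Ace stood at 10.3 TPM in replicate 1 (9.86 to 11.5) and 7.58 TPM in replicate 2 (6.83 to 8.65), a mean of 8.96 ± 1.95 (SD, n = 2), on 1586 and 1127 counts (ENSMUSG00000020681.14, chr11:105967945-105989964). It was higher in replicate 1 and the intervals were separate.

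Of the type 1 receptor genes of the mouse, the reads came from Agtr1a. It stood at 16.7 TPM in replicate 1 (15.6 to 19.0) and 22.45 TPM in replicate 2 (21.03 to 25.2), a mean of 19.6 ± 4.07 (SD, n = 2), on 963 and 1328 counts (ENSMUSG00000049115.15, chr13:30336441-30382867). It ranked 2923 among protein-coding genes, and replicate 2 was the higher library, with separate intervals. Agtr1b, a second copy of the receptor gene on another chromosome, had 0 counts in both libraries and in both quantifications. A count of 0 allows up to 3 counts, by which Agtr1a was at least 337-fold and 468-fold higher per length in replicates 1 and 2. The coding sequences of the pair were 90.8% identical over 1077 bases, but of the 2169 stretches of 31 bases in the main Agtr1a transcript 93 (4.29%) also occurred in that of Agtr1b.

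Agtr2 had 1 count in replicate 1 and 2 counts in replicate 2, listed at 0.01 and 0.02 TPM with deposited upper bounds of 0.426 and 0.421 TPM (ENSMUSG00000068122.10, chrX:21484544-21489164). Per length, Agtr1a exceeded it 1796-fold in replicate 1 (322 to 70954, exact Poisson interval of the Agtr2 count) and 1248-fold in replicate 2 (346 to 10306). These intervals cover counting error only. They show that Agtr1a was far the higher, but not by how much. The deposited upper bounds of Agtr2 allow a smaller excess than the lower limits given here. The coding sequences of Agtr1a and Agtr2 were 55.1% identical and shared no stretch of 31 bases.

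Edn1 was the lowest of the detected genes, at 1.77 TPM in replicate 1 (1.44 to 2.06) and 1.91 TPM in replicate 2 (1.57 to 2.20), on 122 and 136 counts (ENSMUSG00000021367.8, chr13:42301476-42307990). The libraries overlapped, with a ratio of scaled counts of 1.15 (0.895 to 1.48). Ece1, the converting enzyme, stood at 35.07 TPM (31.5 to 38.5) and 34.59 TPM (31.2 to 37.9), a mean of 34.8 ± 0.339 (SD, n = 2), on 4217 and 4003 counts (ENSMUSG00000057530.14, chr4:137862237-137965229). It was within the top 7.39% of protein-coding genes and differed little between the libraries, at a ratio of 0.980 (0.938 to 1.02). Ece1 exceeded Edn1 19.8-fold and 18.1-fold in TPM.

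Both endothelin receptors were expressed, the constrictor form above the other. Ednra stood at 19.6 TPM in replicate 1 (18.5 to 20.0) and 15.0 TPM in replicate 2 (14.1 to 15.5), a mean of 17.3 ± 3.23 (SD, n = 2), on 2319 and 1841 counts (ENSMUSG00000031616.7, chr8:77663031-77724464). Ednrb stood at 7.85 TPM (7.21 to 8.27) and 6.51 TPM (5.93 to 6.89), a mean of 7.18 ± 0.948 (SD, n = 2), on 983 and 828 counts (ENSMUSG00000022122.15, chr14:103814625-103844402). Each was higher in replicate 1, with separate intervals. Their balance was steadier than their levels: Ednra exceeded Ednrb 2.50-fold in replicate 1 and 2.31-fold in replicate 2, and by 1.25 ± 0.08 (SD, n = 2) on the log2 scale of TPM + 0.1 (1.31 read-based). Their coding sequences were 62.6% identical and their main transcripts shared no stretch of 31 bases.

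The order of the constrictor receptors differed between the libraries by alignment. Ednra over Agtr1a was 0.23 on the log2 scale in replicate 1 and -0.58 in replicate 2, a mean of -0.17 ± 0.57 (SD, n = 2), so the SD exceeded the mean. Read-based, Agtr1a was the higher in both libraries, at -0.33 and -1.21 and a mean of -0.77 ± 0.63 (SD, n = 2). By the leading transcripts alone the read-based order differed between the libraries as well. Ednra-201 and Agtr1a-201 stood at 20.7 and 14.2 TPM in replicate 1, and at 16.7 and 19.0 TPM in replicate 2.

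Nos3 stood at 10.8 TPM in replicate 1 (10.1 to 11.2) and 8.52 TPM in replicate 2 (7.92 to 8.87), a mean of 9.67 ± 1.63 (SD, n = 2), on 1469 and 1197 counts (ENSMUSG00000028978.12, chr5:24364810-24384474). Replicate 1 was higher, with separate intervals. It exceeded the other synthases: Nos2, the inducible form, stood at 2.61 and 2.53 TPM, and Nos1, the neuronal form that heart muscle cells also use, at 0.15 and 0.18 TPM. Nos3 over Nos2 was 1.86 ± 0.21 and Nos3 over Nos1 was 5.20 ± 0.36 on the log2 scale (SD, n = 2). Genes annotated on the opposite strand overlap 5 of the 9 genes; among them Atg9b, which meets the end of Nos3, had 24 and 20 counts, and 4933431K23Rik over Ednra had 93 and 76. These names were chosen after their values were seen, and the counts are small beside those of Nos3 and Ednra.

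Between the libraries, 5 of the 8 genes tested differed by more than counting error, all at ratios under 2. A two-sided exact binomial test of the split of scaled counts was run on every gene whose counts averaged 10 or more, adjusted by Benjamini-Hochberg over 15839 genes. With a ratio of at least 2 and separate intervals required, 0.758% of all genes passed, and 0 of the 8. Of all genes 73 (0.461%) were higher in replicate 1 and 47 (0.297%) in replicate 2, and with spike-in scaling 116 and 46. At any ratio, still with separate intervals, 8.48% of all genes passed, 6.64% as higher in replicate 1 and 1.84% in replicate 2. Among genes averaging 100 counts or more, as all 8 did, 10.9% passed, 8.76% and 2.15% by direction. Without the intervals 20.3% passed, split evenly into 1604 (10.1%) and 1617 (10.2%), and again 5 of the 8. The test compares 2 libraries and leaves out the spread between animals.

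Agtr1a was the gene higher in replicate 2, by a ratio of 1.42 (1.31 to 1.55, adjusted p = 2.23e-15, exact binomial test). Those higher in replicate 1 were Ace, 1.36-fold (1.26 to 1.47, adjusted p = 5.84e-14, exact binomial test), Ednra, 1.22-fold (1.15 to 1.30, adjusted p = 4.70e-09), Nos3, 1.19-fold (1.10 to 1.28, adjusted p = 0.000119), and Ednrb, 1.15-fold (1.05 to 1.26, adjusted p = 0.0203). With read-based counts Ednrb no longer passed (adjusted p = 0.0642, exact binomial test), and the other 4 did. Agt, Edn1 and Ece1 did not pass (adjusted p = 0.776, 0.530 and 0.617, exact binomial test), Ece1 excepted under spike-in scaling, where its log2 ratio was -0.14 (adjusted p = 0.000167). Directions were the same under all 4 scalings tried. The median log2 ratio over the 8 was -0.15, beside 0.01 over all genes tested.

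Markers of several other cell types were also higher in replicate 1, where 48.2% of all genes tested had the higher scaled count. Genes were counted as higher by scaled count, while the levels and sums given are TPM. Of 11 endothelial genes 9 were higher in replicate 1, with a list sum of 392 TPM there and 324 TPM in replicate 2; Egfl7 stood at 68.7 and 50.4 TPM and Cdh5 at 58.96 and 49.3 TPM. All 6 smooth muscle genes were higher in replicate 1, with sums of 266 and 198 TPM, Acta2 at 133 and 99.4 TPM and Smtn at 65.5 and 55.1 TPM. So were 8 of 9 fibroblast genes, with sums of 961 and 796 TPM, Gsn at 369 and 319 TPM and Dcn at 166 and 153 TPM. Of 7 pericyte genes 4 were higher in replicate 1 (sums of 274 and 247 TPM), with Rgs5 at 128 and 99.9 TPM and Abcc9 at 85.97 and 90.9 TPM. The pericyte median log2 ratio was close to 0. All 8 macrophage genes were higher in replicate 1 (sums of 89.25 and 65.23 TPM), led by C1qb at 18.6 and 12.9 TPM and C1qa at 18.0 and 13.2 TPM. The endocardial list went the other way by scaled count, with 4 of 5 genes higher in replicate 2, though its sums were 79.99 and 79.67 TPM. Vwf, which is also in the endothelial list, stood at 40.0 and 38.1 TPM and was higher in replicate 2 by scaled count only. Npr3 stood at 13.1 and 13.3 TPM. No gene of these lists was at 0. Of 8 cardiomyocyte genes 7 were higher in replicate 2, with sums of 34710 and 35944 TPM. The part of these cells in the differences was not tested.

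The levels were also set against the sums of those lists. Nos3 made 2.76 TPM per 100 TPM of the endothelial list in replicate 1 and 2.63 in replicate 2, and Ednrb 2.00 and 2.01. Ednra made 7.37 and 7.60 TPM per 100 TPM of the smooth muscle list, and Ace 3.89 and 3.83, though 2.64 and 2.34 of the endothelial list. These values lay closer together than the levels themselves. Both list sums were lower in replicate 2, so dividing by them raises every value there. That alone brings genes lower in replicate 2 closer together and sets level or higher genes farther apart. Neither outcome shows in which cells the genes were expressed. Against the fibroblast list the same 4 genes were 0.884 to 1.00 times as high in replicate 2, so closer values were not particular to vessel cell lists. Against the pericyte list they were 0.814 to 0.921 times as high, and against the cardiomyocyte list 0.708 to 0.801 times. The ratios to lists were chosen after the values were seen. Agtr1a went the other way: its 4.26 and 6.92 TPM per 100 TPM of the endothelial list, and 6.28 and 11.3 of the smooth muscle list, were farther apart than its levels. So were those of Ece1, at 8.94 and 10.7 of the endothelial list and 13.2 and 17.5 of the smooth muscle list, and of Edn1, at 0.451 and 0.589 and at 0.665 and 0.966. Against the cardiomyocyte list Agtr1a was still 1.30 times as high in replicate 2.

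**Figure D2:**
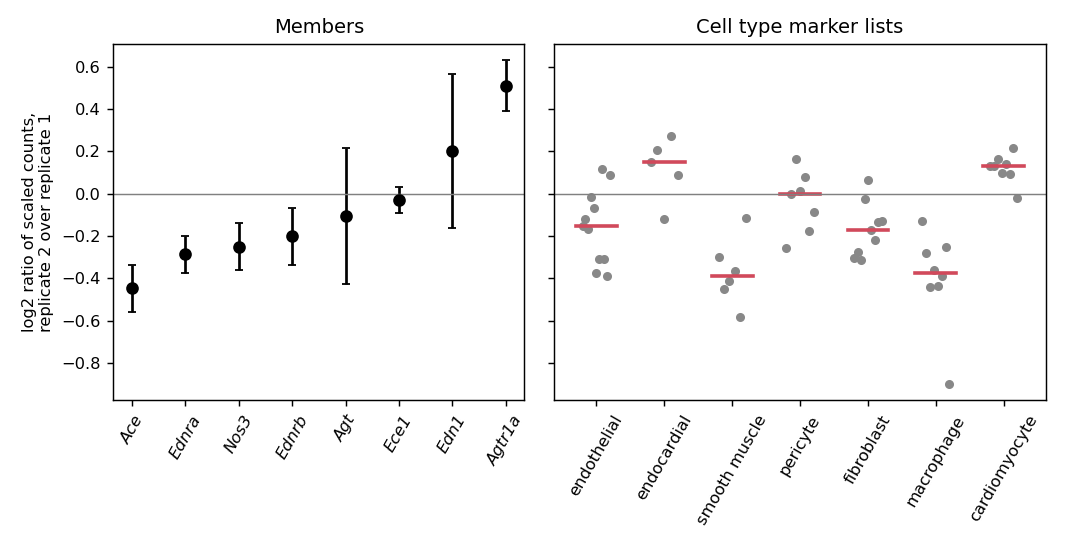
Log2 ratio of scaled counts, replicate 2 over replicate 1, for the 8 tested genes with 95% exact intervals (left) and for marker genes of 7 cell type lists, with list medians as red bars (right). Ace, Ednra, Nos3 and Ednrb lie below 0, as do the smooth muscle, macrophage, fibroblast and endothelial medians (-0.39, -0.37, -0.17 and -0.15). The pericyte median is close to 0 and the endocardial median is 0.15. Agtr1a at 0.51 lies above the cardiomyocyte median of 0.13.

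Transcript tables showed which forms the gene totals rested on. GENCODE M21 lists 25 transcripts for the 9 genes, 1 each for Agt and Edn1. For 8 genes the leading transcript was the same in both libraries and both quantifications, and Ednrb was the exception. Annotated starts bore on the testis form of Ace and on the amino end of the Ece1 protein.

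Ace has a somatic start and a second start within the gene, known as the start of the shorter testis form of the enzyme. Ace-201 carries the somatic start, and Ace-202 begins 7263 bases downstream, after 12 exons of Ace-201. Its first 66 codons are its own, and from there it follows Ace-201 from codon 647 on. The first 25 codons of each are shown, with the start codon in capitals, because they show how the amino ends differ (chr11:105967982-105968056 and chr11:105975208-105975282, plus strand).
Ace-201: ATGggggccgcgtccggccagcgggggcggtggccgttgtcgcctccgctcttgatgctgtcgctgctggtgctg
Ace-202: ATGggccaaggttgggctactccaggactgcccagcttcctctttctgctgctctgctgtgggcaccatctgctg
The somatic transcript was the leading form of Ace. Ace-201 held 81.3% and 77.1% of the gene in replicates 1 and 2 (1365 and 980 counts), and 69.6% and 72.1% read-based. Ace-202 held 2.66% and 3.51%, or 0.28 and 0.27 TPM with deposited intervals from 0.04 to 0.65 and 0.05 to 0.67, and read-based it stood at 0 and 0.05 TPM. The rest lay on Ace-203, at 16.1% and 12.1% by alignment and 22.1% and 20.3% read-based, and on the noncoding Ace-204. Ace-204 was listed at 0 and 7.30% by alignment and at 8.36% and 6.97% read-based.

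The 250 bases before each start, as RefSeq places them (GRCm38.p6), are shown because transcripts of the first were found and few or none of the second. Capitals mark TATAAA and GGGCGG, searched on both strands with overlaps counted. The first window is chr11:105967698-105967947 and the second chr11:105974939-105975188, both on the plus strand; the second lies in an intron of Ace-201, and the RefSeq start that follows it is 19 bases before that of Ace-202.
Ace somatic start: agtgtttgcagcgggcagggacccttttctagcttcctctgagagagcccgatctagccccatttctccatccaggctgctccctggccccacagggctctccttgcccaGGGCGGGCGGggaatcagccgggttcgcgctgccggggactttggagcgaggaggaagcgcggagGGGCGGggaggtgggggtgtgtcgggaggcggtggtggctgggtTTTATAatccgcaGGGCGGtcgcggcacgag
Ace second start: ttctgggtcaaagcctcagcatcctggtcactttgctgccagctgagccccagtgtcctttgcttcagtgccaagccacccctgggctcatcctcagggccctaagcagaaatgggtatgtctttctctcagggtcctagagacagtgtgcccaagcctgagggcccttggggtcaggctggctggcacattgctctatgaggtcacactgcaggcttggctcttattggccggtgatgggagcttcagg
The somatic window held 1 TATAAA, on the opposite strand, and 4 GGGCGG, 2 of them overlapping, and was 67.2% G or C. The second held neither motif and was 58% G or C. Whether these motifs bear on the use of either start was not tested. Among 32851 promoter windows of that length 12.4% held TATAAA and 32.7% GGGCGG. RefSeq entries were found for 7 of the 9 genes, with 11 starts in all; Agtr1a and Nos3 were not among them.

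Ece1 is known for protein forms that differ in their amino end and in where in the cell they act. Ece1-204 starts 51234 bases downstream of Ece1-201 and adds 16 codons, in lower case, before the first codons of Ece1-201, in capitals in both (chr4:137913768-137913839 for the shared stretch, plus strand).
Ece1-201: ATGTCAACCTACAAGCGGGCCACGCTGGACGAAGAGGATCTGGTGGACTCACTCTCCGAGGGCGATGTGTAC
Ece1-204: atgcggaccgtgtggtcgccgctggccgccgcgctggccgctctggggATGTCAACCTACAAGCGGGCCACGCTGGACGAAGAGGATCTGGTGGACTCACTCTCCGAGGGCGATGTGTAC
The full-length Ece1-201 held 98.2% and 96.6% of the gene's counts in replicates 1 and 2. In TPM its share was 74.1% and 67.9%, since short transcripts weigh more per read. Ece1-203, a fragment of 172 bases, had 15 and 14 counts, yet it was listed at 6.08 and 5.49 TPM, or 17.3% and 15.9% of the gene; the read-based tables gave it 0. Ece1-204 is annotated over 728 bases only and stood at 2.88 TPM (1.42 to 4.42) and 5.62 TPM (3.91 to 7.25) in the alignment-based tables. Its intervals overlapped between the libraries, and the read-based values were 4.47 and 4.09 TPM. It took 8.21% and 16.3% of the gene's TPM by alignment but 61.2 and 123 counts, or 1.45% and 3.08% of the gene's counts. The tables do not show how many of these reads fell on its own first codons rather than on sequence shared with Ece1-201.

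The level of Agtr1a also depended on how reads were placed on fragments. Its counts were 963 and 1328 in the alignment-based tables and 973 and 1341 read-based, but its read-based level was 27.2 and 40.3 TPM. The full-length Agtr1a-201, the form with the whole coding sequence of 359 codons, stood at 12.9 and 17.3 TPM by alignment and 14.2 and 19.0 TPM read-based. Agtr1a-206, a fragment of 445 bases, took most of the difference, with 4.97 and 6.88 counts by alignment against 45.8 and 70.7 read-based, which gave it 10.2 and 15.0 TPM. With read-based values Agtr1a led Ece1 by the mean over both libraries (33.8 and 33.5 TPM), though not in replicate 1, where Ece1 stood at 34.6 TPM. The read-based lead of Agtr1a by the mean therefore rested on short annotated fragments. The full-length Ece1-201 stood above Agtr1a-201 in both libraries, at 26.0 and 23.5 TPM by alignment and 29.7 and 28.4 TPM read-based. The higher value of Agtr1a in replicate 2 was seen in both quantifications.

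Ednrb transcripts encode 1 protein in 3 forms. The coding sequences of Ednrb-201, Ednrb-202 and Ednrb-203 were identical over 1326 bases, and Ednrb-201 starts 706 bases upstream of Ednrb-202. Ednrb-201 held 49.3% in replicate 1 and 36.4% in replicate 2, and Ednrb-202 32.4% and 41.8%, so the leading form changed between the libraries. The deposited intervals of both transcripts overlapped within each library. Read-based, Ednrb-201 led in both, at 79.7% and 67.8%, with Ednrb-202 at 7.75% and 17.5%. The share of the upstream start was lower in replicate 2 by both, but its size was not fixed.

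Ednra and Nos3 were dominated by 1 form each. Ednra-201 held 95% and 96.2%, and the intron-retaining Ednra-202 5% and 3.84% (4.86% and 3.84% read-based). Nos3-201 held 96.6% and 97.6% by alignment and 74.3% and 82.3% read-based. The rest was Nos3-202, which encodes 1106 codons in place of 1202, with 44.9 and 26.1 counts by alignment and 357 and 198 read-based.

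**Figure D3:**
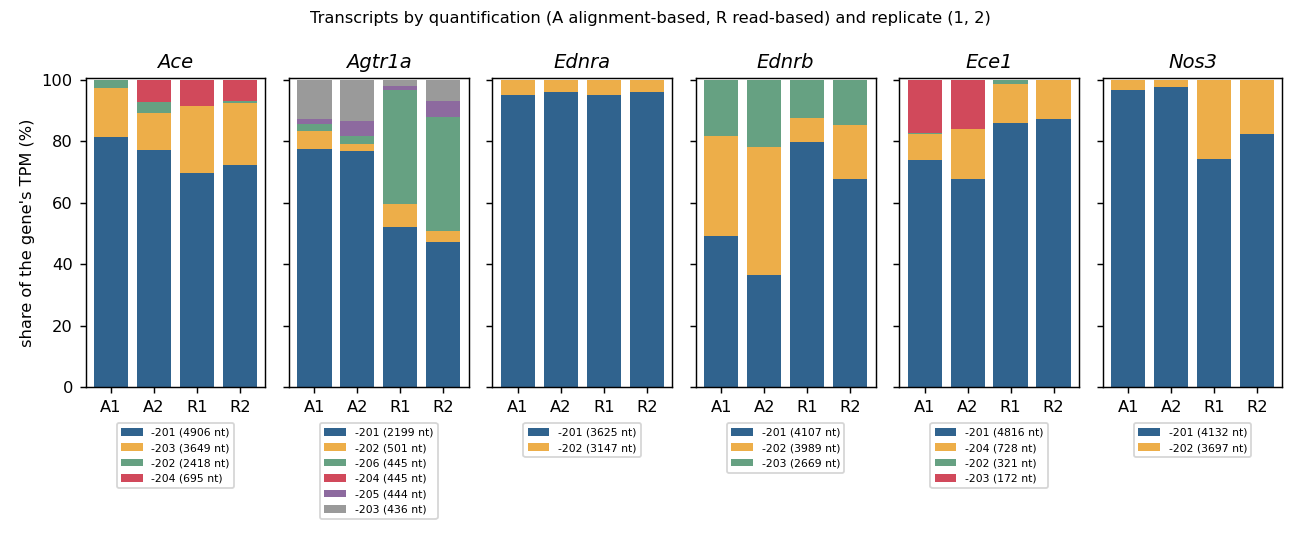
Share of each gene's TPM (%) held by its annotated transcripts, for the alignment-based (A) and read-based (R) tables of replicates 1 and 2; legends give transcript lengths in bases. Shares of Ednra are alike in all 4 columns, while Agtr1a-206 holds 2.54% by alignment and over 37% read-based, and Ece1-203 is present by alignment only.

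Partner genes showed which steps around these members were transcribed in the heart. The 5 partner lists held 78 genes, of which 55 were detected. At any ratio and with separate intervals 13 of the 65 tested passed (all genes, 8.48%). Of these, 10 were higher in replicate 1 (all genes, 6.64%) and 3 in replicate 2 (all genes, 1.84%). Among all genes that passed, 78.3% were higher in replicate 1. At a ratio of at least 2, 1 partner gene passed, Kng1 (all genes, 0.758%). The median log2 ratio of the 65 was -0.04.

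In the renin-angiotensin list 11 of 18 genes were detected. Ctsd, a lysosomal protease able to act on angiotensinogen, stood at 278 ± 2.91 TPM, Lnpep, the aminopeptidase that binds angiotensin IV, at 64.8 ± 4.74 TPM, and Agtrap, which promotes uptake of the type 1 receptor, at 14.9 ± 2.28 TPM (SD, n = 2). Ren1, renin itself, had 4 and 5 counts, at 0.08 and 0.10 TPM. Cma1, the mast cell chymase that can make angiotensin II without Ace, had 13 and 29 counts, at 0.39 and 0.84 TPM. Mas1, a receptor for a shorter angiotensin peptide, had 27 and 12 counts. Nr3c2, the mineralocorticoid receptor, was the list member that passed at any ratio, at 8.72 and 11.7 TPM in replicates 1 and 2, higher in the latter by 1.32 (1.22 to 1.43, adjusted p = 4.59e-11, exact binomial test). It was thus higher in the same library as Agtr1a.

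In the endothelin list 2 of 8 genes were detected, Furin at 41.7 ± 4.94 TPM and Pcsk7 at 6.30 ± 1.36 TPM (SD, n = 2), with Pcsk5 at 0.99 and 1.21 TPM. These encode proprotein convertases, and Furin is known to cut the endothelin precursor before the converting enzyme does. Furin was 1.13-fold higher in replicate 1 (adjusted p = 1.37e-09, exact binomial test). Edn2 had 0 counts in both libraries, Edn3 17 and 8, and Ece2 21.5 and 14, so Edn1 and Ece1 were the detected ligand and converting enzyme.

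The nitric oxide list was the most complete after the coupling genes, with 25 of 29 detected. Hsp90ab1, a chaperone of the synthase, stood at 439 ± 63.0 TPM, Cav1, which binds and restrains it, at 108 ± 12.2 TPM, and Akt1, a kinase that activates it, at 75.0 ± 6.04 TPM (SD, n = 2). The muscle caveolin Cav3 stood at 44.3 and 51.0 TPM. The receptor for nitric oxide was present as Gucy1a1 at 7.41 and 6.81 TPM and Gucy1b1 at 6.85 and 5.87 TPM, with the kinase gene Prkg1 at 5.70 and 5.04 TPM and the phosphodiesterase gene Pde5a at 2.40 and 1.79 TPM. Gch1, which starts synthesis of the cofactor tetrahydrobiopterin, stood at 2.80 and 2.95 TPM, below Pts at 11.1 and 11.9 TPM and Spr at 29.5 and 32.9 TPM, which follow it. The arginase genes that compete for arginine, Arg1 and Arg2, had 0 to 3 counts. In this list 5 of the 27 genes tested passed as higher in replicate 1 at any ratio (all genes, 6.64%, and 8.76% of those averaging 100 counts or more). Among them was Hsp90aa1 at 79.6 and 55.0 TPM, a heat shock gene. Cav3 alone passed as higher in replicate 2 (all genes, 1.84%).

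All 16 genes of receptor coupling through Gq were detected. Rgs5, a brake on Gq signalling that also marks pericytes, stood at 114 ± 19.5 TPM, Plcb4 (a phospholipase) at 24.8 ± 4.09 TPM and Rgs2 at 21.5 ± 0.912 TPM (SD, n = 2). The subunits Gna11 and Gnaq stood at 20.1 ± 1.34 and 9.54 ± 0.552 TPM. Of the 16, 15 had a higher scaled count in replicate 1 (all genes, 48.2%). At any ratio 4 passed in that direction (all genes, 6.64%), namely Rgs5, Plcb4, Itpr2 and Rgs4.

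**Figure D4:**
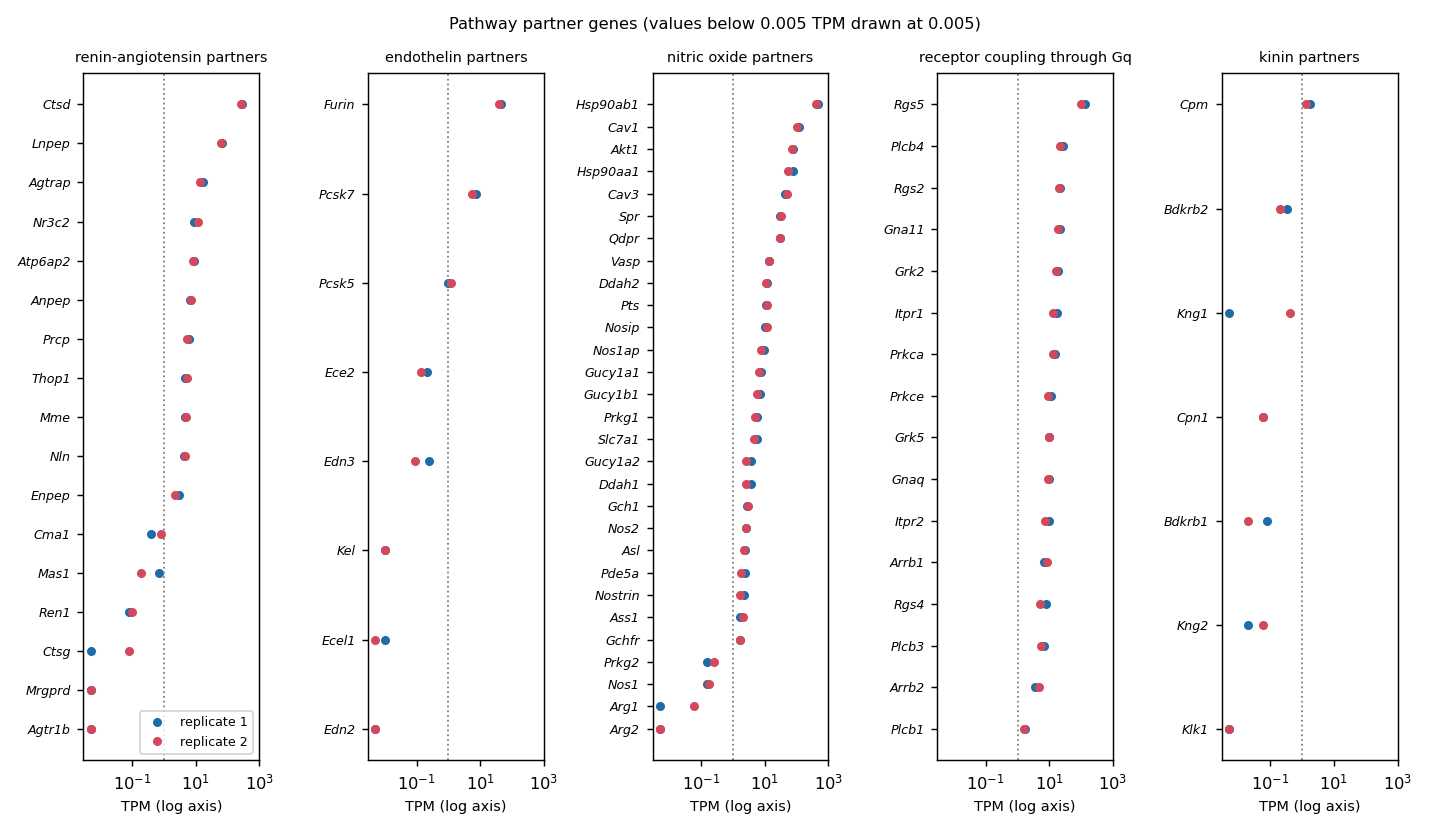
TPM (log axis) of the partner genes, 1 of them not shown, in replicates 1 and 2, by list and ordered by mean level; the dotted line marks 1 TPM and values under 0.005 TPM are drawn at 0.005. All 16 coupling genes lie right of 1 TPM, and 2 of 8 endothelin partners do so in both libraries.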

How the data were processed

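Total RNA of 2 hearts was analysed from the deposited tables. Per the deposited listings these used mm10 and GENCODE M21, as gene and transcript tables from transcriptome alignments (alignment-based) and a transcript table from 1 FASTQ file (read-based), summed here to genes. The quantification programs and their versions are unnamed in these sources. Expected and estimated counts were deposited unnormalized; TPM is the authors' scaling to a fixed total per library, which includes 96 ERCC spike-ins and 26248 tRNAs, which were left out of the fit. Score columns are the deposited bounds of a credibility interval, of unstated level. The percent column was deposited per transcript. Counts were rounded and scaled by TMM (edgeR 4.0.16, R 4.3.3); the binomial p doubles the smaller tail. Ratio intervals are exact (95%) and, like the floors, reflect counting alone. On TPM the median log2 ratio of all genes was -0.09, which shifts the TPM intervals towards replicate 1. The binomial test, without the interval step, was run on counts simulated with counting error alone. That run could not check the spread between animals or the full calling rule. Members and lists were chosen with earlier results of these data known. Named genes are the 3 highest of each partner list, partner genes called at a ratio of at least 2 and pair genes. Cell type lists set beside a member are named by their 2 highest genes. The liver list is the exception, where Alb and Apob were picked by name and not by level. Ren1, Edn2, Bdkrb1, Fga, Fgb, Trf, Hopx, Cma1, Mas1, Nr3c2, Cav3, Hsp90aa1, Edn3, Ece2, Gucy1a1, Gucy1b1, Prkg1, Pde5a, Gch1, Pts, Spr, Arg1, Arg2, Gna11, Gnaq, Itpr2 and Rgs4 were added after their values were seen. DESeq2 1.42.0 size factors, Python 3.11.15, scipy 1.17.1, pandas 2.3.3 and Biopython 1.88 were also used. The values of 1 partner gene are not reported here.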

Additional observations from a re-analysis of the deposited data

How the results depend on the processing

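The counts of detected members (7 to 8) and detected partner genes (49 to 57), and of pairs whose first gene was higher in both libraries (7, or 8 in replicate 1 alone), stayed within 1.5 times under all alternatives run. The median member level was 8.96 TPM, 7.58 and 10.3 TPM with each replicate alone, 10.3 TPM read-based and 22.9 TPM when rescaled to protein-coding nuclear genes. The 120 genes counted as differing became 25 at a mean count of at least 100, 301 at a ratio of at least 1.5, 1343 with no minimum ratio, 272 without the intervals and 324 with read-based counts; members counted went from 0 to 5 with no minimum ratio and stayed at 0 otherwise. A pseudocount of 1 lowered Agtr1a over Agtr2 from 7.4 to 4.33 and Nos3 over Nos1 from 5.20 to 3.19 on the log2 scale. The any-ratio counts under other scalings and the ratios to marker lists were added after the data were seen. Leaving out a library leaves no comparison between libraries, so none was run. No paired analysis was possible because there was 1 group. Leading transcripts, the same in both libraries for 8 members by alignment and 9 read-based, cannot be compared with a library left out. Depth limits what can be said of Agtr2, Ren1 and Mas1.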

Other observations

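The kinin genes, whose peptide bradykinin Ace also degrades, were mostly below the detection level. Of 7 genes Cpm, a membrane carboxypeptidase, was detected, at 1.72 and 1.34 TPM. The bradykinin receptor gene Bdkrb2 had 42 and 26 counts, at 0.34 and 0.20 TPM, and Bdkrb1 had 2 and 1. Kng1, the kininogen precursor made by liver, had 28.1 counts in replicate 2 and 0 in replicate 1, the library pattern of the liver list. Agt, also a liver product, did not share it, and a liver part of its counts was not tested.

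Mast cell markers, listed because of the chymase Cma1, summed to 3.54 TPM in replicate 1 and 3.70 TPM in replicate 2, led by Kit at 1.40 and 1.64 TPM, which other cells also express, and Mcpt4 at 0.73 and 0.76 TPM. Schwann cell markers, listed because Ednrb acts in neural crest derivatives, summed to 7.18 and 6.78 TPM, led by Cnp at 2.79 and 2.99 TPM and Mbp at 1.80 and 1.46 TPM. Ednrb alone stood at 7.85 and 6.51 TPM.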
